A study of Mus musculus with 6 samples.

Results

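The mitochondrial ribosomal protein genes were compared between blood stem and progenitor cells labelled Gfi1 knockout and wild type. The members were all probe sets that the platform annotation gives exactly 1 gene symbol, with that symbol starting with Mrpl or Mrps and a digit. This rule took 127 of 22626 probe sets, which stand for 74 of the 12393 genes with such a probe set. Each gene was described by its probe set with the highest mean deposited signal over the 6 arrays, and its other probe sets were used as a check. 41 genes had 1 probe set and 33 had several. RefSeq holds 4 further protein-coding genes of this name pattern, Mrpl30, Mrpl53, Mrps10 and Mrps27, which were not analysed here.

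The mitochondrial ribosome translates the few proteins that mitochondrial DNA encodes, which are core subunits of the respiratory chain and of ATP synthase. Its ribosomal RNAs are made in the mitochondrion, whereas all of its proteins are encoded in the nucleus, made in the cytosol and imported. Mrpl genes are named for the large subunit, which joins amino acids, and Mrps genes for the small subunit, which reads the messenger RNA. Some members descend from bacterial ribosomal proteins and others were gained by the mitochondrion. In the bone marrow, quiescent stem cells rely largely on glycolysis, and respiration increases as progenitors become active and differentiate.

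The cells were LSK cells, a sorted bone marrow fraction that is negative for lineage markers, positive for Sca-1 and Kit, and enriched in haematopoietic stem cells. One group of 3 arrays was labelled as coming from Gfi1 knockout mice and the other 3 as wild type, with the samples numbered 5, 7 and 8 in each group. Gfi1 is a zinc finger protein that represses transcription. The sources used here do not give the knocked-out allele, strain, sex or age, nor whether an array stands for a single mouse or pooled mice. The p-values therefore cover only the spread among these 6 samples, which may be technical.

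The targeted gene went against its label. Gfi1 signals were 692.4, 1163 and 1737 on the arrays labelled knockout 5, 7 and 8, and 632, 608.2 and 722.7 on wild-type arrays 5, 7 and 8. The arrays labelled knockout were thus not lower. The difference was 0.76 ± 0.28 (SE, log2 scale, limma adjusted p = 0.148). A probe set can lie outside the deleted part of a gene, and where this one lies was not tested, so it does not check the labels. The groups are therefore called knockout-labelled and wild type throughout.

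All 6 arrays had been scaled to a trimmed mean signal of 1000.33 to 1000.37, and their median signals were 285.7 to 335. The share of probe sets brighter than the brightest bacterial control was 67% to 74.4%. Of the 74 members, 71 were bright enough to be tested, and 69 of these were above that control on all 6 arrays. The number of arrays limits the precision. Because the samples are bulk RNA scaled to 1 total, fewer cells of a type and less RNA per cell cannot be told apart.

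Promoter sequences were read from RefSeq's table for build GRCm38.p6, which spans 250 bases before to 50 bases after each annotated start. It held 71 promoters of 65 members. Mrpl16, the member that passed the test, is shown first, with the 150 bases before its start at chr19:11770265-11770414 on the plus strand.

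Mrpl16: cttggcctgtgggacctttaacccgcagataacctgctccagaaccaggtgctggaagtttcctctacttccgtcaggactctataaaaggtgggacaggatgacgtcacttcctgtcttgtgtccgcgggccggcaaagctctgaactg

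The next 4 sequences show short motifs that recur in these promoters, and capitals mark the match in each. Mrpl17 (chr7:105811117-105811146, minus strand) holds a match to the NRF1 motif, and Mrpl58 (chr11:115403722-115403751, plus strand) one to the ETS motif. The Mrpl58 stretch spans the start of the annotated gene, and its match lies within the gene. Mrps11 (chr7:78783011-78783040, plus strand) holds the YY1 motif on the opposite strand, in a stretch that also lies within Mrpl46. Mrpl46 and Mrps11 are neighbours read in opposite directions, and the last sequence is the gap between them (chr7:78783090-78783130, plus strand), with an SP match.

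Mrpl17: aggctctgatGCGCACGCGCaaacgcggta
Mrpl58: ggctggcggaccgCCGGAAGagtgagcacc
Mrps11: ccctacgggcGCCGCCATCTTtctgtcttc
Mrpl46 to Mrps11: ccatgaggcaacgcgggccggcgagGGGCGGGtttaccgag

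Exact matches were counted on both strands, and matches to different motifs may overlap. The motif of NRF1, an activator of nuclear genes for mitochondria, was in 16.9% of the 71 member promoters and in 4.6% of all 32851 promoters. CCGGAAG, which ETS factors such as GABP bind, was in 33.8% and 8.86%. The motif of YY1 was in 8.45% and 0.986%. GGGCGGG, bound by the SP family, was in 45.1% and 25.6%, and the E-box CACGTG in 9.86% and 7.15%. Over the 21263 promoters of protein-coding genes these shares were 6.38% for NRF1, 11.6% for ETS, 1.38% for YY1, 33.9% for SP and 7.84% for the E-box. Member promoters were also richer in G and C, with a median of 58.7% against 56.3% in the promoters of protein-coding genes and 52.7% in all promoters. Their median number of CpG dinucleotides was 21, against 13 and 7. All 5 motifs contain CpG, and the motif shares take no account of this composition. None of the 5 motifs matched in the Mrpl16 sequence shown. Within the family, the 24 tested genes with an ETS match had a median difference between the groups of 0.39 and the 39 without one 0.29. With an NRF1 match the median was 0.25 over 12 genes, and 0.34 over the 51 without. For YY1 it was 0.22 over 6 genes and 0.34 over 57, for SP 0.34 over 27 and 0.25 over 36, and for the E-box 0.56 over 5 and 0.30 over 58. These gaps were not tested. A match is a description of letters, and binding was not measured.

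The mitochondrial ribosomal protein genes lay almost throughout on the higher side in the knockout-labelled arrays, each by a small amount. The median difference was 0.34 on the log2(signal + 16) scale, which is 1.26-fold, with quartiles of 0.13 and 0.51. Over all 8239 genes tested the median was -0.01, with quartiles of -0.25 and 0.23. The difference was above 0 for 70 of the 71 tested members, beside 49.2% of all genes. 12 members were at least 1.5-fold higher and 0 at least 2-fold. The share of all genes past these folds was not counted. Among the 12, Mrpl37 rested on 1 wild-type array. Mrps15, Mrps25 and Mrpl17 each had a second tested probe set, at 0.23, -0.13 and -0.04.

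Few of these single differences passed the test. With limma and Benjamini-Hochberg adjustment over all probe sets tested, 1 member, Mrpl16, rose and 0 fell at an adjusted p under 0.05. Of all genes, 1.42% were called higher and 2.48% lower, so 1 of 71 members called higher is near the background. At an unadjusted p under 0.05, 26 members were higher and 0 lower, beside 9.41% and 11.2% of all genes. For 30 of the 71 members (42.3%) every knockout-labelled array lay above every wild-type array, beside 12.4% of all genes. The reverse held for 0 members and 13.1% of all genes. The median SE of a member was 0.21. Members share their arrays and are not independent replicates.

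**Figure D1:**
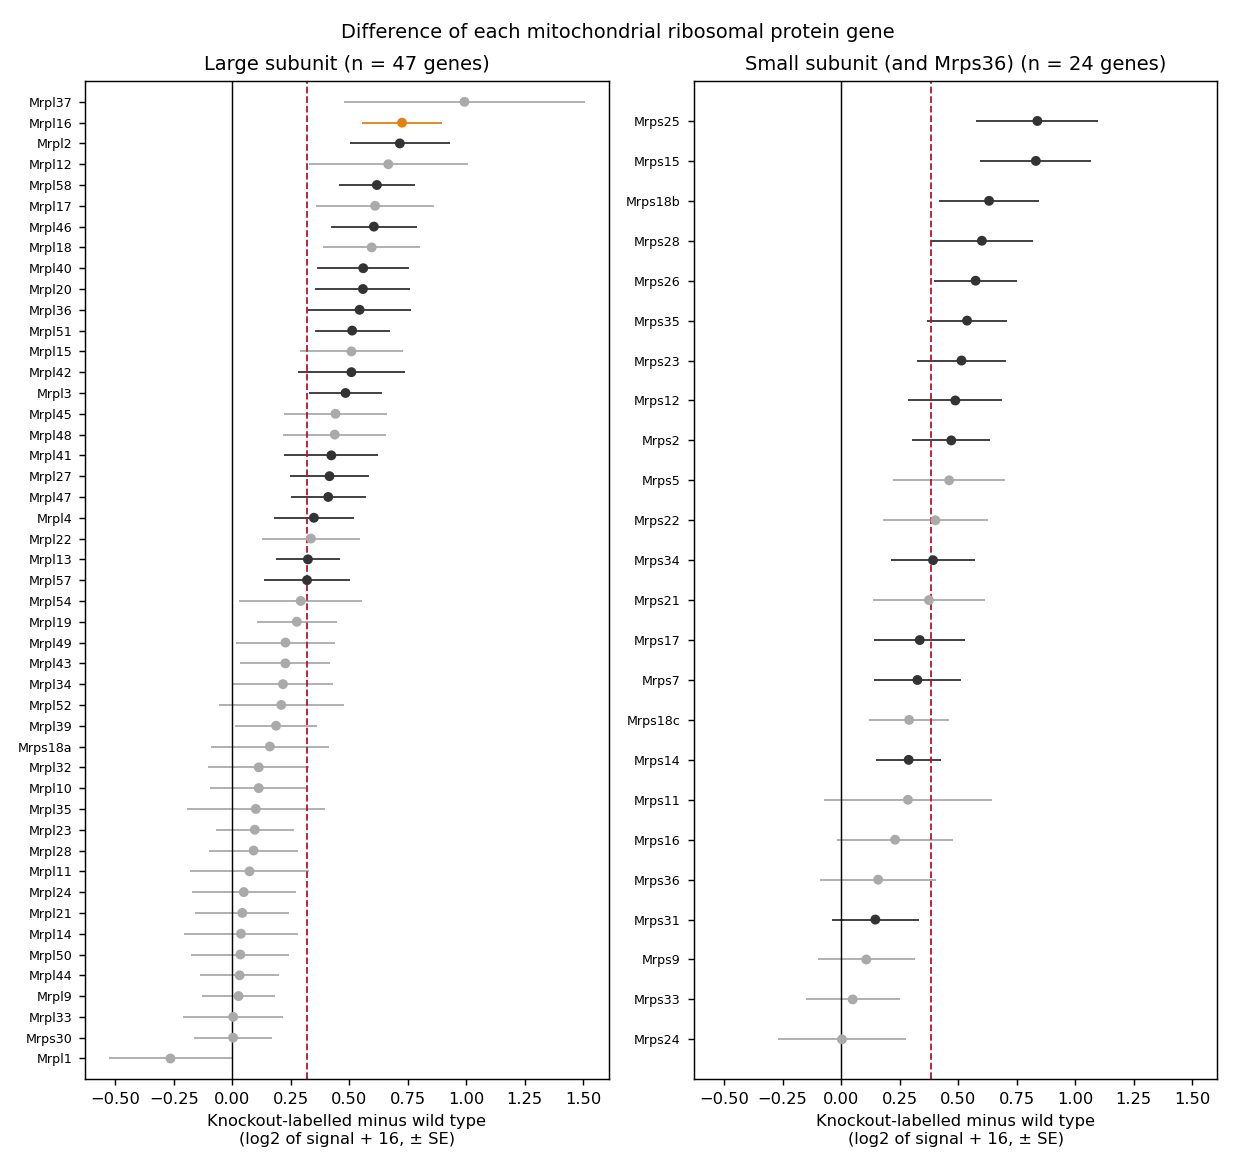
Each point is 1 tested gene, with its difference between knockout-labelled and wild-type arrays on the x axis (log2 of signal + 16, bar ± SE, 3 arrays a group), by subunit, and the dashed line is the panel's median. The orange point is Mrpl16, which passed the test, black points are genes whose groups do not overlap, and grey points overlap. Mrpl1 alone lies left of 0.

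The shift was seen on every array. Relative to each gene's mean over the 6 arrays, the median member was higher by 0.24, 0.13 and 0.22 on knockout-labelled arrays 5, 7 and 8. On wild-type arrays 5, 7 and 8 it was -0.09, -0.29 and -0.10. The same median over all genes lay between -0.05 and 0.03 on each array. The groups did not overlap in this median, and wild-type array 7 stood lowest, with 8 of 71 members above their own mean, while knockout-labelled array 8 had 62.

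Each of the 9 pairs of a knockout-labelled with a wild-type array gave a median above 0, from 0.16 for knockout-labelled 7 against wild-type 5 to 0.54 for knockout-labelled 5 against wild-type 7. The pairs hold 49 to 64 of 71 members above 0, and they share arrays. Between samples of the same number, the median was 0.27 for number 5, 0.42 for number 7 and 0.27 for number 8. 45 members were higher in all 3 of these pairs, 21 in 2 and 5 in 1.

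**Figure D2:**
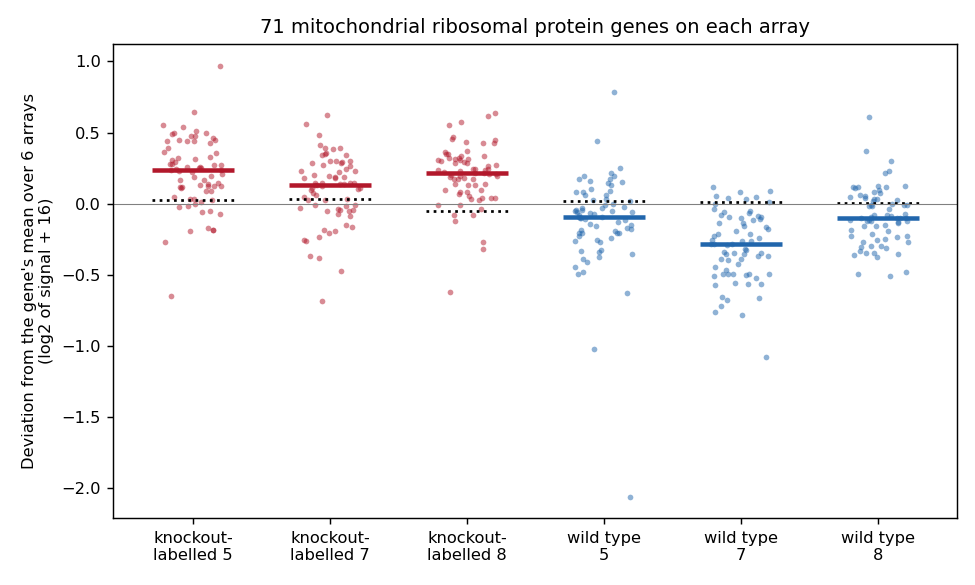
Each point is 1 of 71 mitochondrial ribosomal protein genes on 1 array, as its deviation from that gene's mean over the 6 arrays (y axis, log2 of signal + 16), solid bars are medians of the members and dotted bars medians of all genes. The solid bars lie at 0.13 to 0.24 on the 3 knockout-labelled arrays and at -0.29 to -0.09 on the 3 wild-type arrays.

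Among large-subunit proteins, 46 of 47 tested genes were above 0, with a median of 0.32. The test called 1 of them higher, beside 1.42% of all genes. Mrpl16, which lies by the site where aminoacyl-tRNA is accommodated, had signals of 2411, 2180 and 2262 on knockout-labelled arrays 5, 7 and 8 and 1268, 1481 and 1382 on wild-type arrays 5, 7 and 8. The 2 groups were far apart relative to the scatter within each. Mrpl16 rose by 0.73 ± 0.17 (SE), 1.65-fold, with a limma adjusted p of 0.0348. Leaving out any 1 array ended this call, with adjusted p between 0.0556 and 0.126, while the difference stayed between 0.67 and 0.78.

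Mrpl58, a peptidyl-tRNA hydrolase built into the large subunit that frees stalled ribosomes, came closest to it. Its signals were 4538, 4448 and 4509 on knockout-labelled arrays and 3028, 2539 and 3255 on wild-type arrays. The knockout-labelled values lay within a narrow band above all wild-type values. The difference was 0.62 ± 0.16 (SE), 1.53-fold, with a limma adjusted p of 0.0518. When the limma fit took the sample number as a block, Mrpl58 passed at an adjusted p of 0.039. This fit called 2 of 71 members higher and 0 lower, beside 2.34% and 4.02% of all genes.

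Mrpl2 and Mrpl3, core proteins near the centre where peptide bonds form, lay in the same direction without passing. Mrpl2 had 1445, 1021 and 1594 against 892, 797 and 730, a difference of 0.72 ± 0.21 (limma adjusted p = 0.0842). Mrpl3 had 4525, 4727 and 4475 against 3078, 3612 and 3135, a difference of 0.48 ± 0.16 (limma adjusted p = 0.104). Neither gene's groups overlapped.

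The central protuberance, which carries a structural transfer RNA in mitochondria in place of the bacterial 5S RNA, had the highest median of the sites compared, 0.56, with 5 of its 6 members tested and a range of 0.42 to 0.61. Mrpl46 had 1624, 1805 and 1602 on knockout-labelled arrays against 1261, 992 and 1051. Mrpl18, whose bacterial relative binds 5S RNA, had 2675, 2004 and 3093 against 1577, 1463 and 2063, and its groups overlapped. Mrpl40, Mrpl27 and Mrpl48 differed by 0.56, 0.42 and 0.44. Of these 5 genes, 0 passed, beside 1.42% of all genes called higher. At an unadjusted limma p under 0.05, 4 were higher, beside 9.41% of all genes. The exception was Mrpl48, at 2107, 3101 and 3950 against 2529, 2003 and 2039.

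The stalks of the large subunit showed smaller or more scattered differences. Mrpl12, which recruits translation factors and also binds the mitochondrial RNA polymerase, had 1165, 512 and 685 against 568, 269 and 641. Its difference of 0.67 ± 0.34 came with overlapping groups (limma adjusted p = 0.306). Mrpl10, which anchors Mrpl12, differed by 0.11 ± 0.21, and Mrpl11, at the base of the stalk, by 0.07 ± 0.25. The remaining Mrpl11 probe sets disagreed in size, since 1 gave 3412, 3127 and 3046 against 2190, 2201 and 2515, a difference of 0.47 (limma adjusted p = 0.13). Mrpl1, the protein of the opposite stalk, was the member below 0, at 400, 447 and 247 against 466, 424 and 398. Its difference was -0.26 ± 0.26 (limma adjusted p = 0.646), and its second tested probe set gave 0.44, so no direction can be given.

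Around the exit tunnel, where new chains leave the ribosome, the 8 members had a median of 0.26. Mrpl17 was highest at 0.61 ± 0.25, and Mrpl45, which holds the ribosome to the inner membrane, had 0.44 ± 0.22. Mrpl44, which resembles a ribonuclease, lay at 0.03 ± 0.17 with signals of 2718, 2355 and 2470 against 2775, 2393 and 2232. Mrpl23 and Mrpl24 were likewise near 0, at 0.10 and 0.05. The test called 0 of the 8, beside 1.42% of all genes called higher. At an unadjusted limma p under 0.05, 2 were higher, beside 9.41% of all genes.

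The highest point estimate of the family, Mrpl37, rested on 1 array. Its signals were 302, 316 and 286 on knockout-labelled arrays and 38, 203 and 327 on wild-type arrays, of which array 5 was below the bacterial control. The difference of 0.99 ± 0.51 (limma adjusted p = 0.313) became 0.21 without wild-type array 5. Other large-subunit genes lay near 0 with overlapping groups. Mrps30, which despite its name belongs to the large subunit, differed by 0.00 ± 0.17, Mrpl33 by 0.00 ± 0.21, Mrpl9 by 0.03 ± 0.16, Mrpl50 by 0.03 ± 0.21, Mrpl14 by 0.04 ± 0.24 and Mrpl21 by 0.04 ± 0.20.

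All 23 tested small-subunit genes were above 0, with a median of 0.39. The test called 0 of them, and 10 were higher at an unadjusted limma p under 0.05, beside 9.41% of all genes. Every knockout-labelled array lay above every wild-type array for 14 of the 23 and for 16 of the 47 large-subunit genes, beside 12.4% of all genes. The difference between the subunits was not tested.

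Mrps15, which helps to shape the small-subunit RNA and to bridge the subunits, had 1200, 1318 and 939 on knockout-labelled arrays and 546, 533 and 874 on wild-type arrays. All knockout-labelled arrays were higher, though knockout-labelled 8 and wild-type 8 were close. The difference was 0.83 ± 0.24 (limma adjusted p = 0.071). Its second probe set, the one with the higher mean log2 value, gave 0.23 ± 0.20 with overlapping groups, so the size of the Mrps15 difference depends on the probe set. Mrps25, a protein gained by the mitochondrion, had 1191, 1197 and 1058 against 412, 663 and 928. Its difference was 0.84 ± 0.26 (limma adjusted p = 0.0956), but its second probe set went the other way, at 411, 402 and 410 against 442, 416 and 484, a difference of -0.13 ± 0.22. No direction for Mrps25 can be given from the pair.

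Other small-subunit members had smaller spreads. Mrps26 had 2233, 1857 and 1930 on knockout-labelled arrays against 1450, 1247 and 1323 on wild-type arrays, a difference of 0.57 ± 0.18 (limma adjusted p = 0.0945). Mrps35 had 2488, 2470 and 2661 against 1664, 1595 and 1993, a difference of 0.54 ± 0.17 (limma adjusted p = 0.103). Mrps28 differed by 0.60 ± 0.22. The groups of these 3 genes did not overlap.

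Mrps12, which monitors codon reading at the decoding centre, had 1201, 896 and 1059 against 692, 716 and 818, a difference of 0.49 ± 0.20 with the groups apart. Mrps16 and Mrps22, in which mutations cause human respiratory chain deficiency, differed by 0.23 ± 0.25 and 0.40 ± 0.22, and the groups of both overlapped. At the channel where messenger RNA enters, Mrps5 had 0.46 ± 0.24 and Mrps24 0.00 ± 0.27. Mrps33 differed by 0.05 ± 0.20.

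**Figure D3:**
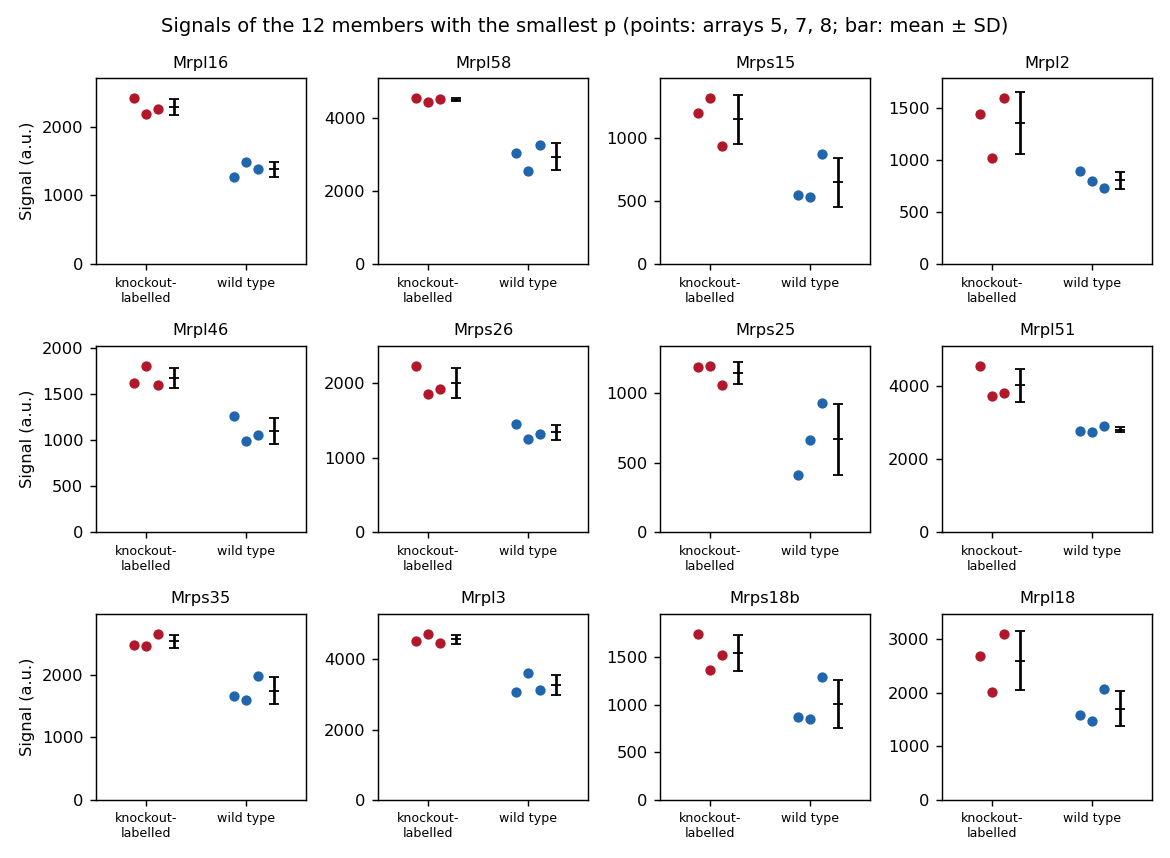
Deposited signals (y axis, arbitrary units, linear from 0) of the 12 members with the smallest p, with 1 point for each of arrays 5, 7 and 8 in a group and a bar for the mean ± SD. In every panel but Mrpl18 all knockout-labelled points lie above all wild-type points.

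The 3 Mrps18 paralogues, which occupy different places in the ribosome, differed among themselves in size. Mrps18b had 1748, 1366 and 1525 on knockout-labelled arrays against 870, 851 and 1296, a difference of 0.63 ± 0.21 (limma adjusted p = 0.12). Mrps18c lay at 0.29 ± 0.17 and Mrps18a, which sits in the large subunit, at 0.16 ± 0.25, both with overlapping groups. Whether the paralogues differ from each other was not tested. Mrps36, now assigned to the 2-oxoglutarate dehydrogenase complex, lay at 0.16 ± 0.25.

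Proteins with bacterial relatives and those particular to mitochondria gave similar numbers. The median was 0.32 over 42 genes of the first kind and 0.41 over 28 of the second. Every knockout-labelled array lay above every wild-type array in 16 and 14 of them, beside 12.4% of all genes. The difference between these kinds was not tested either. The 3 members too dim to be tested were Mrpl38, at 91, 169 and 328 against 32, 74 and 238, Mrps6, at 194, 139 and 195 against 170, 226 and 243, and Mrpl55, at 281, 235 and 258 against 105, 177 and 184. Of these 3, Mrpl55 alone had groups that did not overlap.

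Of the members' 53 other probe sets, 35 were bright enough to be tested, and their median difference was 0.23, beside 0.34 for the probe sets used above. The difference between these medians was not tested. 25 lay above 0 and 10 did not, and the limma test called 0, beside 1.44% of all probe sets called higher and 2.19% lower, with 6 higher and 0 lower at unadjusted p under 0.05. Of the 26 genes with at least 2 tested probe sets, 17 had all of them above 0 and 9 had them on both sides. Mrpl41 and Mrps2 agreed across theirs, with 0.42 and 0.64 for Mrpl41 and 0.47 and 0.77 for Mrps2, and all 3 Mrpl13 probe sets gave 0.32 to 0.44. Mrps9 had 4, from -0.54 to 0.11. Besides Mrps25, only Mrpl15 and Mrpl17 had at least 1 probe set at an unadjusted limma p under 0.05 and another below 0. Mrpl15 ranged from -0.08 to 0.55 and Mrpl17 from -0.04 to 0.61. Without less specific probe sets, the brightest of Mrpl15 gave 0.12.

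Among the mitoribosomal proteins with other names, Chchd1 of the small subunit had 1755, 1388 and 1346 on knockout-labelled arrays against 1147, 948 and 1027, a difference of 0.51 ± 0.19. Dap3, a GTP-binding small-subunit protein, lay at 0.26 ± 0.18 and Ptcd3 at -0.09 ± 0.21. The 19 tested genes for mitoribosome assembly and modification of its RNA had a median of 0.08, and limma called 0 of them. At unadjusted p under 0.05, 2 were higher and 0 lower, beside 9.41% and 11.2% of all genes, so the count of higher genes is near the background. The smallest p belonged to Noa1, a GTPase needed for assembly, at 0.45 ± 0.17, and the RNA methyltransferase Mrm3 at 0.46 ± 0.19.

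The list of 10 translation factors also took in genes for messenger RNA stability (Lrpprc and Slirp) and transfer RNA modification (Mto1 and Gtpbp3). It had a median of 0.09, with 0 called by limma. At unadjusted p under 0.05, 3 were higher (Gfm1, Lrpprc and Slirp) and 0 lower, beside the same 9.41% and 11.2%. Gfm1, the elongation factor that moves the ribosome along, had 1919, 2211 and 1946 on knockout-labelled arrays against 1139, 1212 and 1504, a difference of 0.66 ± 0.18 (limma adjusted p = 0.0691). Lrpprc, which with Slirp stabilises mitochondrial messenger RNA, lay at 0.44 ± 0.18. The list of mitochondrial aminoacyl-tRNA synthetases also took in the amidotransferase subunits Qrsl1, Gatb and Gatc. Its median was 0.29 over 12 genes, with 0 called by limma and 3 higher and 0 lower at unadjusted p under 0.05, beside these shares. Kars at 0.50 ± 0.15 and Gars at 0.47 ± 0.16 had the smallest p, and both genes also supply the cytosolic enzyme.

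The 77 tested nuclear genes for respiratory chain and ATP synthase subunits had a median of 0.30, with 72 above 0. Here 2 rose and 0 fell by limma, beside 1.42% and 2.48% of all genes, so the called count is not far from the background. At unadjusted p under 0.05, 26 were higher and 1 lower, beside 9.41% and 11.2% of all genes. Cyc1, the cytochrome c1 of complex III, had 7941, 8131 and 8072 on knockout-labelled arrays against 4684, 5347 and 4326, and rose by 0.75 ± 0.15 (limma adjusted p = 0.015). Atp5o, a stalk subunit of ATP synthase, rose by 0.65 ± 0.17, just inside the threshold.

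Other gene lists centred near 0. The 43 tested cytosolic ribosomal protein genes had a median of -0.06, with 14 above 0. Limma called 0 of them, with 1 higher and 2 lower at unadjusted p under 0.05, beside 9.41% and 11.2% of all genes. Rplp0, of the cytosolic ribosomal stalk, lay at -0.54 ± 0.16 and Rpl22 at -0.52 ± 0.14. This median changed sign with the setting, from -0.14 to 0.04, and was 0.03 without knockout-labelled array 7 and 0.04 without wild-type array 5. The 17 genes for keeping and transcribing mitochondrial DNA or processing its RNA had a median of -0.02, which also changed sign, reaching 0.10 without knockout-labelled array 7. Limma called 0 of these, with 2 higher and 1 lower at unadjusted p under 0.05, which is near those background shares for the higher genes. As values, Top1mt, the mitochondrial topoisomerase, lay at 0.58 ± 0.23, the nuclease Rexo2 at 0.37 ± 0.15, and Tfam, which packages mitochondrial DNA, at -0.34 ± 0.15. No difference between these lists and the members was tested.

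**Figure D4:**
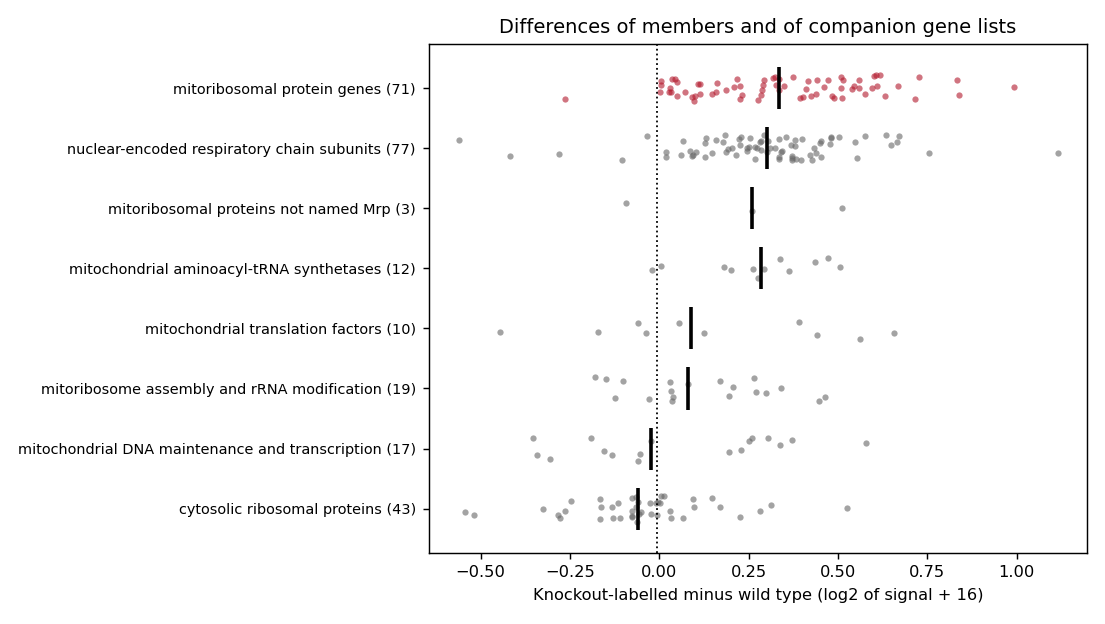
Each point is 1 tested gene, placed by its difference between knockout-labelled and wild-type arrays (x axis, log2 of signal + 16), with black bars for the median of a list, a dotted line for the median of all genes, and the number of genes in parentheses. The medians of the mitochondrial ribosomal protein genes and the respiratory chain genes lie at 0.34 and 0.30, and that of the cytosolic ribosomal protein genes at -0.06.

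Markers of neutrophils and of monocytes and macrophages moved with the groups. The summed signal of 7 neutrophil markers was 4799 to 12550 on knockout-labelled and 19838 to 40631 on wild-type arrays, with 5 of 7 called lower by limma. For 5 monocyte and macrophage markers it was 11473 to 14115 against 6479 to 7875, with 3 of 5 called higher. Of the LSK markers, 4 of 6 were on the array by a single symbol, and Ly6a, which encodes Sca-1, was not among them. Their sum was 20966 to 24782 against 27983 to 32848, with Kit and Flt3 called lower, at -0.71 and -1.19. Cd34, at -0.11, and Slamf1, which lay on the higher side at 0.38, were not called, and the groups of both overlapped.

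Among the other lists, limma called 1 of 2 tested T and NK cell markers lower, with sums of 2695 to 3296 against 2462 to 3129. The called gene was Klrd1, at -1.41. Nkg7 went the other way, at 0.50, and was not called, though every knockout-labelled array lay above every wild-type array. Limma called 0 of 4 tested erythroid markers, with sums of 1979 to 2432 against 2562 to 5110. It called 0 of the 3 tested megakaryocyte markers (2670 to 4067 against 2330 to 3939), 0 of the 5 tested B and plasma cell markers (27071 to 41398 against 23833 to 32759) and 0 of the 3 tested endothelial and stromal markers (1276 to 1644 against 1223 to 2218). No marker of any list was at or below the bacterial control on all 6 arrays. Their part in the shift of the mitochondrial ribosomal protein genes was not tested. The Gapdh control probe sets, whose 3' over 5' ratio reflects how far the RNA was copied, gave 6.11, 4.3 and 4.43 on knockout-labelled arrays and 5.73, 4.44 and 5.64 on wild-type arrays, with the groups overlapping.

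The direction of the family did not depend on 1 array, whereas its counts did. Without any 1 of the 6 arrays, the median lay between 0.27, without wild-type array 7, and 0.39, and 62 to 65 of 71 members were above 0. The number of members at an unadjusted limma p under 0.05 fell from 26 to 15 without knockout-labelled array 8 and to 16 without wild-type array 7. Calls over all genes at an adjusted p under 0.05 fell too. They went from 117 higher and 204 lower to 23 and 60 without knockout-labelled array 8, and to 39 and 58 without wild-type array 7. The number of members called at an adjusted p under 0.05 was 0 without knockout-labelled 5, 7 or 8 or wild-type 5 or 7. The share of all genes called higher was then 0.279% to 0.922%. Without wild-type array 8, 4 members were called, beside 1.88% of all genes.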

How the data were processed

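RNA from 6 LSK samples, 3 labelled Gfi1 knockout and 3 wild type, was hybridised to 1 single-colour Affymetrix array each, from 10 ng of total RNA after 2 rounds of amplification per the labels' protocols. The authors deposited 1 linear intensity per probe set and array, made with MAS5 per the submitters' processing notes. Which MAS5 version was used is not given in the sources used here. No CEL files or detection calls were used.

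From these, log2(signal + 16) was computed without further normalization. Tests ran on the brightest 60% of probe sets by their mean over all arrays (13575, mean signal above about 198), with the 64 control probe sets left out. limma 3.58.1 in R 4.3.3 (lmFit, eBayes with trend, two-sided) fitted knockout-labelled minus wild type on all 6 arrays, with Benjamini-Hochberg adjustment over the probe sets tested and a threshold of 0.05. Folds on this scale understate the change of dim probe sets. The fit was tested on simulated data, where it missed most changes of the size seen in the members.

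Symbols came from the platform annotation, which can be old, so a probe set may detect other transcripts. Promoters came from RefSeq (GRCm38.p6). The bacterial control is the brightest of 27 Bacillus probe sets on each array.

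The members, companion lists and markers were chosen with earlier results of these data known. Named genes were members past the threshold, the 12 highest and 12 lowest differences (of which 1 was below 0), and 14 set by name. Members whose probe sets disagreed in sign, with at least 1 of them at an unadjusted p under 0.05, were also named. So were companion genes past the threshold or else the 2 of smallest p. Further members are named as examples, chosen after their values were seen. Probe sets of highest mean deposited signal were used after a first run with the highest mean log2 value, once results had been seen.

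The labels give samples of both groups the numbers 5, 7 and 8. Each sample's deviations from its group's mean were correlated between the groups. The correlations were 0.159, 0.168 and 0.238 for samples of the same number and -0.134 to -0.0307 for different numbers. Deviations cancel within a group, so positive values for the same number bring negative ones for different numbers. The numbers were taken as a possible pairing. The main fit did not use it, and the fit with the sample number as a block is an alternative. Alternatives covered pseudocount, filter, scaling, variance trend, replicate block, probe set rule and leaving out each array.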

Additional observations from a re-analysis of the deposited data

How the results depend on the processing

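17 alternatives were planned and 1, the probe set of highest mean log2 value, was added after seeing the data. No setting called any member lower, and the median of the members stayed between 0.27 and 0.39. The number called higher, 1 as reported, was 0 with no brightness filter or no variance trend, beside 0.347% and 0.425% of all genes. It was 2 (Mrpl16 and Mrpl58) with the brightest 40%, with the mean of a gene's probe sets or without less specific probe sets. The shares of all genes called higher were then 1.9%, 1.78% and 1.48%. The number of members called was 0 to 4 when 1 array was left out, beside 0.279% to 1.88% of all genes. The 4, without wild-type array 8, were Mrpl58, Mrps15, Mrps18b and Mrps25. With the replicate number as a block 2 members were called, beside 2.34% of all genes. The block changed no call of a member other than Mrpl58. The cause of these changes was not tested.

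The median centring, quantile and cyclic loess scalings each called Mrpl16, with members' medians of 0.39, 0.36 and 0.33 and all-gene medians of 0.05, 0.02 and 0.01. Mrpl16 passed in 10 of 18 alternatives, with adjusted p from 0.0198 to 0.126. Over all genes, 117 higher and 204 lower calls became 43 and 79 with no brightness filter, 35 and 77 with no variance trend, and 193 and 331 with the replicate block, and 23 to 155 and 58 to 195 when 1 array was left out. The added probe set rule took Mrps15 from 0.83 to 0.23 and the members' median to 0.33. 19 members changed sign in some alternative, 7 of them with all arrays in, and none of these values passed the threshold (largest size 0.24). Signal over background limited Mrpl37, Mrps11, which was below the bacterial control on knockout-labelled array 7, and the 3 members not tested. Every single gene is limited by 3 arrays a group.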
